A study of Mus musculus with 30 samples.

Results

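Described here are 41 genes of the cell cycle and of DNA replication, read in 30 RNA-seq libraries of mouse descending thoracic aorta that list 26253 genes. They were taken by symbol from a list of 27 genes of mitosis and 14 genes of DNA replication, and all 41 were found, each with a mean of at least 1 CPM (counts scaled to a common library size, with TMM factors over the 30 libraries). Mice were male, on a C57BL/6J background. They carried either 1 missense *Col3a1* allele (labelled Het), which models vascular Ehlers-Danlos syndrome (VEDS), or none (labelled WT, here control). Being inherited, the allele is present in every cell type. Untreated mice and mice given hydralazine, a vasodilator, at 32 mg/kg/day in the drinking water from birth gave 6 libraries per genotype. A further 3 VEDS libraries each came from mice that also received the androgen receptor antagonist bicalutamide (HB, 50 mg/kg/day) or the mineralocorticoid receptor antagonist spironolactone (HS, 100 mg/kg/day) in chow from day 21 until harvest at day 60. The 4 groups of 6 combine aortas harvested at day 30 and at day 60. RNA was extracted in randomised sets of 10 aortas, each with 1 of the 3 aortas of every treatment group. Age is not labelled by library and all libraries share 1 batch label, so neither entered a fit and no library was assigned an age.

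Dividing cells switch these genes on in sequence. E2F factors activate replication genes as a cell enters S phase, among them the Mcm helicase subunits, the sliding clamp *Pcna* and the enzymes that make deoxynucleotides. Mitosis genes follow in G2 phase under FOXM1 and the MuvB complex, which binds the cell cycle homology region (CHR) of their promoters. Vascular smooth muscle cells proliferate while the aorta grows and are largely quiescent in the adult wall. In bulk RNA, fewer dividing cells and less RNA per dividing cell cannot be told apart.

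Promoters of the mitosis and the replication genes differed in the motifs they held. RefSeq promoter windows of the mouse build GRCm38.p6, from 250 bases before to 50.0 bases after the gene start, were found for 34 of the 41 genes (37 windows). The CHR (TTTGAA), the NF-Y box (CCAAT) and the E2F site (TTCCCGC or TTCGCGC or TTGCCGC or TTGGCGC) were searched on both strands, and an E2F match can share bases with an NF-Y box. The CHR was in 17 of 23 windows of mitosis genes (73.9%), in 1 of 14 windows of replication genes (7.14%) and in 17.9% of all 32851 windows. The E2F site was in 4 of 23 windows of mitosis genes (17.4%), in 9 of 14 of replication genes (64.3%) and in 9.57% of all windows. The NF-Y box was common to both sets, in 82.6% of mitosis and 78.6% of replication windows, against 37.4% of all windows. A match is a run of letters and not a measured binding site.

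**Figure D1:**
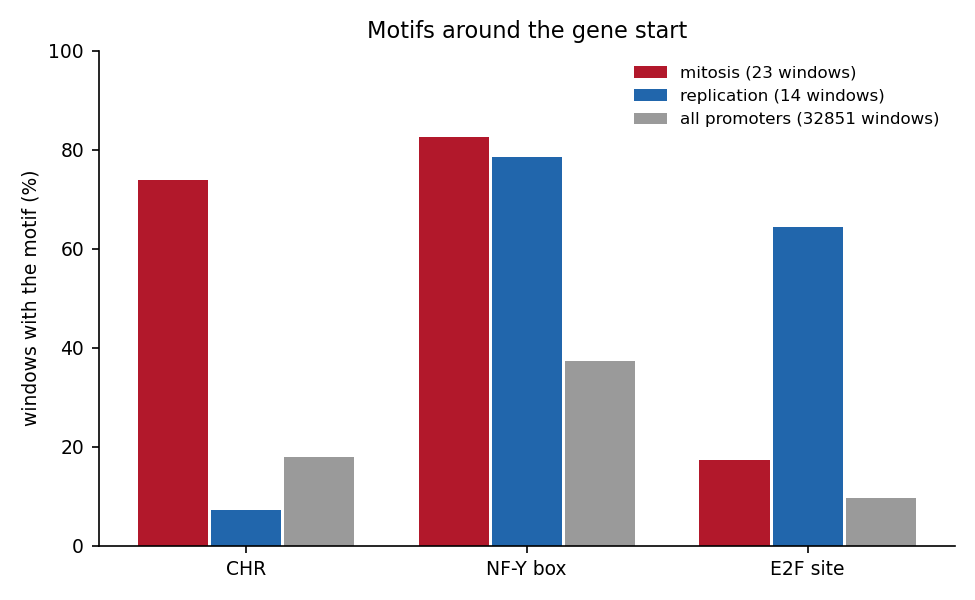
Bars give the percent of promoter windows that hold each motif on either strand for mitosis genes (23 windows), replication genes (14 windows) and all promoters (32851 windows). The CHR is in 73.9% of mitosis and 7.14% of replication windows, and the E2F site in 17.4% and 64.3%.

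The windows that follow show each motif in genes whose levels are described below. Each is 30 bases of the gene's own strand, 5′ to 3′, with the motif in capitals and its position counted from the gene start, whose first base is 1. The first set shows the CHR of *Mki67* (chr7:135716460-135716489, minus strand, -98 to -93), *Top2a* (chr11:99024195-99024224, minus strand, motif on the opposite strand, -23 to -18), *Cdk1* (chr10:69352910-69352939, minus strand, -15 to -10), *Cdc20* (chr4:118437344-118437373, minus strand, -18 to -13), *Cenpf* (chr1:189688067-189688096, minus strand, 3 to 8) and *Plk1* (chr7:122159453-122159482, plus strand, 31 to 36).
Mki67: ccgccgttttggTTTGAAtcgggcgggctg
Top2a: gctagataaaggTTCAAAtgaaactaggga
Cdk1: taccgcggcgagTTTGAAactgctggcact
Cdc20: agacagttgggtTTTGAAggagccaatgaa
Cenpf: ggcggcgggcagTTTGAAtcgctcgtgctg
Plk1: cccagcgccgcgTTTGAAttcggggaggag
In 14 of the 16 mitosis genes with a CHR, the match nearest to the start lay within 50.0 bases of it.

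The second set shows an E2F site of *Mcm5* (chr8:75109346-75109375, plus strand, -152 to -146), *Mcm6* (chr1:128359733-128359762, minus strand, -46 to -40), *Rrm1* (chr7:102441617-102441646, plus strand, -67 to -61) and *Uhrf1* (chr17:56303278-56303307, plus strand, -48 to -42).
Mcm5: cgccaagaactTTCGCGCcaaaacgtccag
Mcm6: attggacgggtTTGGCGCgaagtagctcag
Rrm1: aggagaactcgTTCCCGCcaggtccgcttt
Uhrf1: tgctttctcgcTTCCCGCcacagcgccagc
All 4 hold the motif, and their SDs within groups on the log2(CPM + 0.5) scale ran from 0.15 (*Mcm6*) through 0.20 (*Rrm1*) and 0.61 (*Mcm5*) to 0.82 (*Uhrf1*).

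The mitosis genes divided the libraries within each group of 6 into high and low ones. Their summed level in replicates 1 to 6 was 45.4, 65.4, 54.7, 241, 254 and 226 CPM in untreated VEDS aortas and 74.4, 268, 274, 64.2, 254 and 75.5 CPM in hydralazine control aortas. In both groups 3 libraries were high and 3 low, with none between. Hydralazine VEDS aortas had 125, 86, 339, 265, 236 and 74.9 CPM and untreated control aortas 43.5, 48.4, 41.6, 283, 474 and 92.1 CPM. Here replicate 1 of the former and replicate 6 of the latter lay between the high and the low libraries. Over the 30 libraries the sum ran from 41.6 to 474 CPM, an 11.4-fold range.

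HB and HS aortas, which were all of day 60, lay at the low end or between. The mitosis sum was 66.2, 150 and 70.3 CPM in HB and 122, 78.7 and 68.5 CPM in HS libraries. None of the 6 reached the 3 high libraries of untreated or hydralazine VEDS aortas, of which the lowest had 226 CPM.

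The replication genes divided the libraries far less when summed. Their sum in replicates 1 to 6 was 203, 210.0, 203, 261, 233 and 226 CPM in untreated VEDS and 203, 205, 258, 217, 231 and 200.0 CPM in hydralazine VEDS aortas. It was 229, 234, 230.0, 199, 232 and 211 CPM in hydralazine control and 206, 196, 209, 246, 305 and 200.0 CPM in untreated control aortas. In all of these groups but untreated control the 3 highest libraries were those of the mitosis sum, by small margins. HB libraries had 210.0, 209 and 214 CPM and HS libraries 207, 214 and 199 CPM. Over 30 libraries the sum ran from 196 to 305 CPM, a 1.56-fold range. *Mcm6* and *Pcna* make up much of this sum, and the less abundant replication genes varied more.

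**Figure D2:**
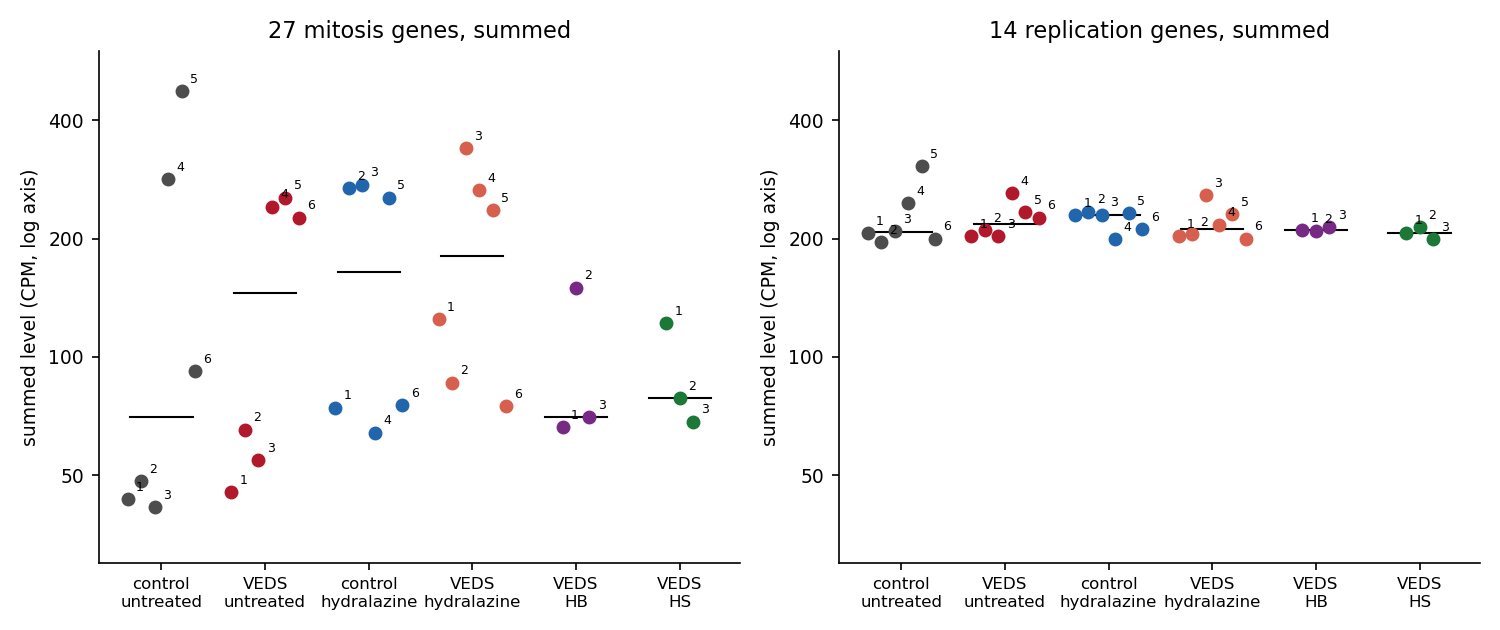
Each point is 1 library, numbered by replicate, with the summed CPM of the 27 mitosis genes (left) and the 14 replication genes (right) on a log axis, and a line at each group's median. Mitosis sums run from 41.6 to 474 CPM and separate within the groups of 6, while replication sums stay between 196 and 305 CPM.

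*Col3a1*, the gene that carries the mutation and encodes type III collagen, divided the same libraries although it is no cell cycle gene. Its level was 5334, 4474, 4316, 14561, 15051 and 16249 CPM in untreated control and 5335, 5444, 4711, 13568, 17691 and 16122 CPM in untreated VEDS aortas. Hydralazine groups had 4416, 16718, 16697, 7710.0, 16042 and 5092 CPM in control and 7501, 5450.0, 14647, 15262, 14688 and 5764 CPM in VEDS aortas. In each of the 4 groups its 3 highest libraries were those of the mitosis sum, including untreated control replicate 6, whose mitosis sum was intermediate. HB had 7113, 6130.0 and 5561 CPM and HS 7171, 7381 and 5549 CPM, all on the low side. Since the allele is a missense change, the level of *Col3a1* does not check the genotype labels. *Col3a1* was looked at here after its values were seen.

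Ki-67 (*Mki67*), a protein of the surface of mitotic chromosomes and the usual marker of proliferating cells, showed the division in 3 of the 4 groups of 6 as a wide gap between the third and the fourth library. In untreated control aortas *Mki67* was at 7.98, 12.7, 9.27, 78.3, 137 and 22 CPM and in untreated VEDS aortas at 7.91, 16.3, 11.8, 65.5, 68.4 and 67.2 CPM. With hydralazine the values were 19, 80.0, 75.4, 17.7, 71.1 and 19.9 CPM in control and 25.5, 20.0, 95.5, 71.7, 66.3 and 18.3 CPM in VEDS aortas. Levels were 14.6, 33.3 and 18 CPM in HB and 27.4, 20.0 and 14.8 CPM in HS aortas. The fourth lowest library exceeded the third lowest 4.03-fold in untreated VEDS, 3.57-fold in hydralazine control and 2.6-fold in hydralazine VEDS aortas. In untreated control aortas it did so 1.73-fold, and the widest gap lay between the fourth and the fifth. Every HB and HS value lay below the 3 highest libraries of both VEDS groups of 6.

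Topoisomerase II alpha (*Top2a*), which untangles replicated chromosomes, followed the same libraries. Untreated control libraries had 5.21, 4.19, 4.22, 41, 70.6 and 10.9 CPM and untreated VEDS libraries 3.45, 7.83, 5.24, 34.6, 35.5 and 31.2 CPM of *Top2a*. Hydralazine libraries had 7.05, 42.2, 36.2, 9.35, 37.9 and 9.8 CPM in control and 17.6, 11.1, 42.7, 33.2, 27.9 and 9.14 CPM in VEDS aortas. The HB aortas stood at 5.95, 19.3 and 9.29 CPM and the HS aortas at 16.1, 11.3 and 6.25 CPM. Of all members it had the widest range, 4.17 on the log2(CPM + 0.5) scale. Its 3 highest libraries in each group of 6 were those of *Mki67*.

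The kinase *Cdk1* and its partner cyclin *Ccnb1* drive entry into mitosis and rested on far fewer reads. The levels of *Cdk1* without treatment were 0.978, 0.466, 0.703, 6.54, 12.1 and 1.82 CPM in control and 1.01, 0.921, 0.992, 4.78, 6.76 and 5.22 CPM in VEDS aortas. On hydralazine, control aortas had 1.64, 4.27, 6.74, 1.84, 4.97 and 1.49 CPM and VEDS aortas 2.8, 1.91, 7.17, 4.32, 4.6 and 2.45 CPM. In HB it was 0.851, 3.99 and 1.8 CPM and in HS 2.86, 1.94 and 1.33 CPM. These values stand for 3 to 71 counts a library. Without treatment, control aortas held 0.326, 0.776, 0.562, 7.3, 12.5 and 2.28 CPM of *Ccnb1* and VEDS aortas 0.863, 0.461, 0.425, 5.77, 6.27 and 2.96 CPM. Control aortas given hydralazine had 0.983, 5.37, 4.81, 0.708, 4.66 and 1.63 CPM and VEDS aortas given it 3.27, 2.08, 9.4, 6.26, 4.73 and 1.55 CPM. With an antagonist added, HB aortas had 0.68, 3.49 and 0.693 CPM and HS aortas 2.1, 1.29 and 1.73 CPM. *Ccnb1* ranged over 2 to 73 counts, and both genes were high in the libraries that were high for *Mki67*.

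Survivin (*Birc5*), a subunit of the chromosomal passenger complex, was close to the counting limit. *Birc5* stood at 0.978, 0.466, 0.0, 2.89, 2.05 and 1.52 CPM in untreated control and at 1.29, 0.921, 0.567, 1.41, 1.48 and 2.09 CPM in untreated VEDS aortas. Under hydralazine it was at 0.983, 2.69, 2.17, 0.142, 2.33 and 0.594 CPM in control and 0.778, 1.56, 2.56, 3.28, 2.57 and 0.129 CPM in VEDS aortas. HB libraries had 1.02, 1.16 and 0.693 CPM and HS libraries 1.65, 0.645 and 1.73 CPM. Its 3 highest libraries in each of the 4 groups of 6 were those of the mitosis sum. At 0 to 22 counts a library the margin could be small, as in untreated VEDS aortas (1.41 against 1.29 CPM). The polo kinase *Plk1*, which acts at spindle poles and kinetochores, was about as low. In untreated control aortas *Plk1* was at 0.326, 0.31, 0.422, 1.67, 3.25 and 1.22 CPM and in untreated VEDS aortas at 0.719, 0.461, 0.425, 1.13, 1.32 and 1.57 CPM. With hydralazine the values were 0.164, 1.74, 3.13, 0.425, 1.09 and 0.891 CPM in control and 1.56, 0.0, 1.37, 1.64, 1.08 and 0.515 CPM in VEDS aortas. Levels were 0.17, 0.998 and 0.555 CPM in HB and 0.902, 0.645 and 0.931 CPM in HS aortas. *Plk1* matched the 3 highest libraries of the mitosis sum in 3 of the 4 groups. In hydralazine VEDS aortas replicate 1 (1.56 CPM) was among its 3 highest instead. No library held more than 26 counts of it.

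*Foxm1* encodes the factor that activates many of the mitosis genes. Untreated control libraries had 0.815, 0.466, 0.703, 3.5, 4.79 and 1.37 CPM and untreated VEDS libraries 1.29, 0.921, 0.708, 1.97, 2.31 and 2.61 CPM of *Foxm1*. Hydralazine libraries had 1.15, 3.48, 2.29, 1.84, 3.11 and 1.78 CPM in control and 2.8, 1.22, 3.76, 4.02, 3.79 and 1.16 CPM in VEDS aortas. The HB aortas stood at 1.87, 3.49 and 0.971 CPM and the HS aortas at 1.8, 0.323 and 1.2 CPM. Its 3 highest libraries in each group of 6 were those of the mitosis sum, at 2 to 28 counts a library.

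The other 20 mitosis genes were cyclins (*Ccna2*, *Ccnb2*), Aurora kinases (*Aurka*, *Aurkb*), spindle checkpoint kinases (*Bub1*, *Bub1b*), kinesin motors (*Kif11*, *Kif20a*, *Kif23*, *Kif2c*), centromere proteins (*Cenpa*, *Cenpe*, *Cenpf*), spindle proteins (*Nusap1*, *Prc1*, *Tpx2*, *Hmmr*), the kinase *Melk*, and *Ube2c* and *Cdc20*, which serve the anaphase-promoting complex. Their log2 ranges over 30 libraries went from 2.29 (*Bub1b*, 1.69 to 10.2 CPM) to 4.14 (*Cenpf*, 1.42 to 33.3 CPM). Control untreated replicate 5 was the highest of its group for 24 of the 27 mitosis genes.

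The Mcm genes encode subunits of 1 helicase and differed widely in how they varied. *Mcm2* was an intermediate case. The levels of *Mcm2* without treatment were 7.49, 5.59, 6.04, 14.3, 17.3 and 7.6 CPM in control and 7.91, 7.98, 5.81, 15, 8.91 and 9.4 CPM in VEDS aortas. On hydralazine, control aortas had 6.39, 7.11, 10.9, 8.93, 12.4 and 5.94 CPM and VEDS aortas 7.94, 7.47, 14.5, 8.94, 8.52 and 7.73 CPM. In HB it was 8, 6.66 and 8.32 CPM and in HS 7.81, 8.23 and 5.59 CPM. Its range was 3.09-fold. *Mcm5* varied most among them. Without treatment, control aortas held 6.03, 4.35, 4.07, 11.6, 19.3 and 6.53 CPM of *Mcm5* and VEDS aortas 5.75, 6.91, 4.82, 12.7, 7.42 and 7.31 CPM. Control aortas given hydralazine had 6.72, 7.11, 9.38, 4.11, 10.2 and 2.53 CPM and VEDS aortas given it 8.72, 3.99, 14.9, 12.1, 9.2 and 5.92 CPM. With an antagonist added, HB aortas had 5.95, 7.16 and 5.41 CPM and HS aortas 5.11, 5.32 and 3.59 CPM. Its range was 7.65-fold, and its 3 highest libraries matched those of the mitosis sum in all 4 groups. *Mcm3*, *Mcm4* and *Mcm7* had ranges of 2.29-fold, 1.81-fold and 2.03-fold.

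*Mcm6* had the narrowest range of the 41 members, 1.55-fold, and tended the other way. *Mcm6* stood at 86.5, 77.3, 90.5, 66.1, 77.6 and 62.7 CPM in untreated control and at 75.9, 77.7, 70.5, 66.4, 67.1 and 66 CPM in untreated VEDS aortas. Under hydralazine it was at 93.4, 81.7, 70.0, 78.1, 69.2 and 89 CPM in control and 66.8, 79.2, 62.7, 60.1, 65.3 and 74 CPM in VEDS aortas. HB libraries had 77.2, 73.1 and 82.2 CPM and HS libraries 76.5, 76.6 and 85.5 CPM. In both VEDS groups of 6 the 3 libraries with the highest mitosis sums had the 3 lowest *Mcm6* levels. Per transcript length, *Mcm6* was also the most abundant Mcm gene, with a median of 15.8 TPM against 1.23 (*Mcm5*) to 3.39 TPM (*Mcm7*) for the others.

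*Pcna*, the clamp that holds DNA polymerases on their template, was the most abundant member per length, with a median of 22.3 TPM. In untreated control aortas *Pcna* was at 36.5, 32, 36.5, 43.3, 54.5 and 37.4 CPM and in untreated VEDS aortas at 34.1, 35.2, 36.8, 44.9, 40.9 and 40.7 CPM. With hydralazine the values were 41.5, 39.5, 36.3, 32.6, 41.8 and 36.7 CPM in control and 32.8, 29.9, 46.6, 36.4, 40.8 and 35 CPM in VEDS aortas. Levels were 37.1, 38.3 and 34.8 CPM in HB and 37.6, 41 and 33.9 CPM in HS aortas. Its range was 1.83-fold. In 3 of the 4 groups of 6 its 3 highest libraries were those of the mitosis sum, where the fourth lowest library exceeded the third lowest 1.02-fold to 1.11-fold, and in hydralazine control aortas they were not.

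The 2 subunits of ribonucleotide reductase, which makes deoxynucleotides, parted in the same way. *Rrm1*, the large subunit, stayed between 22.6 and 40.0 CPM. Untreated control libraries had 1.3, 1.86, 0.703, 3.5, 7.52 and 3.04 CPM and untreated VEDS libraries 2.3, 1.84, 2.41, 6.05, 3.46 and 3.48 CPM of *Rrm2*. Hydralazine libraries had 1.97, 2.84, 5.53, 1.42, 4.97 and 1.78 CPM in control and 2.8, 1.56, 4.78, 4.62, 3.79 and 1.29 CPM in VEDS aortas. The HB aortas stood at 0.17, 2.66 and 1.8 CPM and the HS aortas at 1.8, 2.26 and 1.73 CPM. *Rrm2*, the small subunit, is the one whose supply follows S phase, and it stood at 1 to 46 counts a library. Thymidylate synthase (*Tyms*) varied less. The levels of *Tyms* without treatment were 4.89, 5.59, 6.6, 8.82, 8.04 and 6.84 CPM in control and 6.04, 6.6, 6.66, 11.5, 8.41 and 8.01 CPM in VEDS aortas. On hydralazine, control aortas had 5.73, 6.32, 9.14, 5.95, 9.16 and 5.05 CPM and VEDS aortas 8.56, 7.82, 9.57, 7.75, 9.47 and 7.98 CPM. In HB it was 6.63, 5.33 and 5.41 CPM and in HS 5.71, 4.03 and 4.79 CPM. All HB and HS values of *Tyms* were below every hydralazine VEDS value. *Tk1*, the thymidine salvage kinase, ran from 0.807 to 8.38 CPM.

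*E2f1*, an activator of replication genes, did not follow the mitosis sum closely. Without treatment, control aortas held 1.14, 2.02, 2.11, 3.19, 2.05 and 1.82 CPM of *E2f1* and VEDS aortas 0.863, 3.22, 2.83, 1.83, 2.47 and 2.96 CPM. Control aortas given hydralazine had 1.15, 2.69, 2.77, 1.28, 3.26 and 1.19 CPM and VEDS aortas given it 2.49, 1.74, 2.56, 1.64, 2.98 and 1.03 CPM. With an antagonist added, HB aortas had 2.04, 2.66 and 1.8 CPM and HS aortas 2.25, 1.94 and 1.2 CPM. *E2f1* stood at 6 to 23 counts a library, few enough for counting error to reorder libraries. Its 3 highest libraries were those of the mitosis sum in 1 of the 4 groups. *Uhrf1*, which guides maintenance DNA methylation to newly copied DNA, followed it in all 4. *Uhrf1* stood at 1.3, 0.466, 0.843, 4.71, 6.16 and 3.8 CPM in untreated control and at 1.01, 2, 0.708, 4.22, 3.96 and 5.74 CPM in untreated VEDS aortas. Under hydralazine it was at 1.97, 5.22, 3.49, 0.992, 2.64 and 1.78 CPM in control and 3.11, 1.56, 4.1, 5.81, 3.92 and 1.29 CPM in VEDS aortas. HB libraries had 1.7, 2 and 2.36 CPM and HS libraries 1.95, 1.13 and 1.2 CPM. The helicase cofactor *Gins2* ran from 0.85 to 4.45 CPM.

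**Figure D3:**
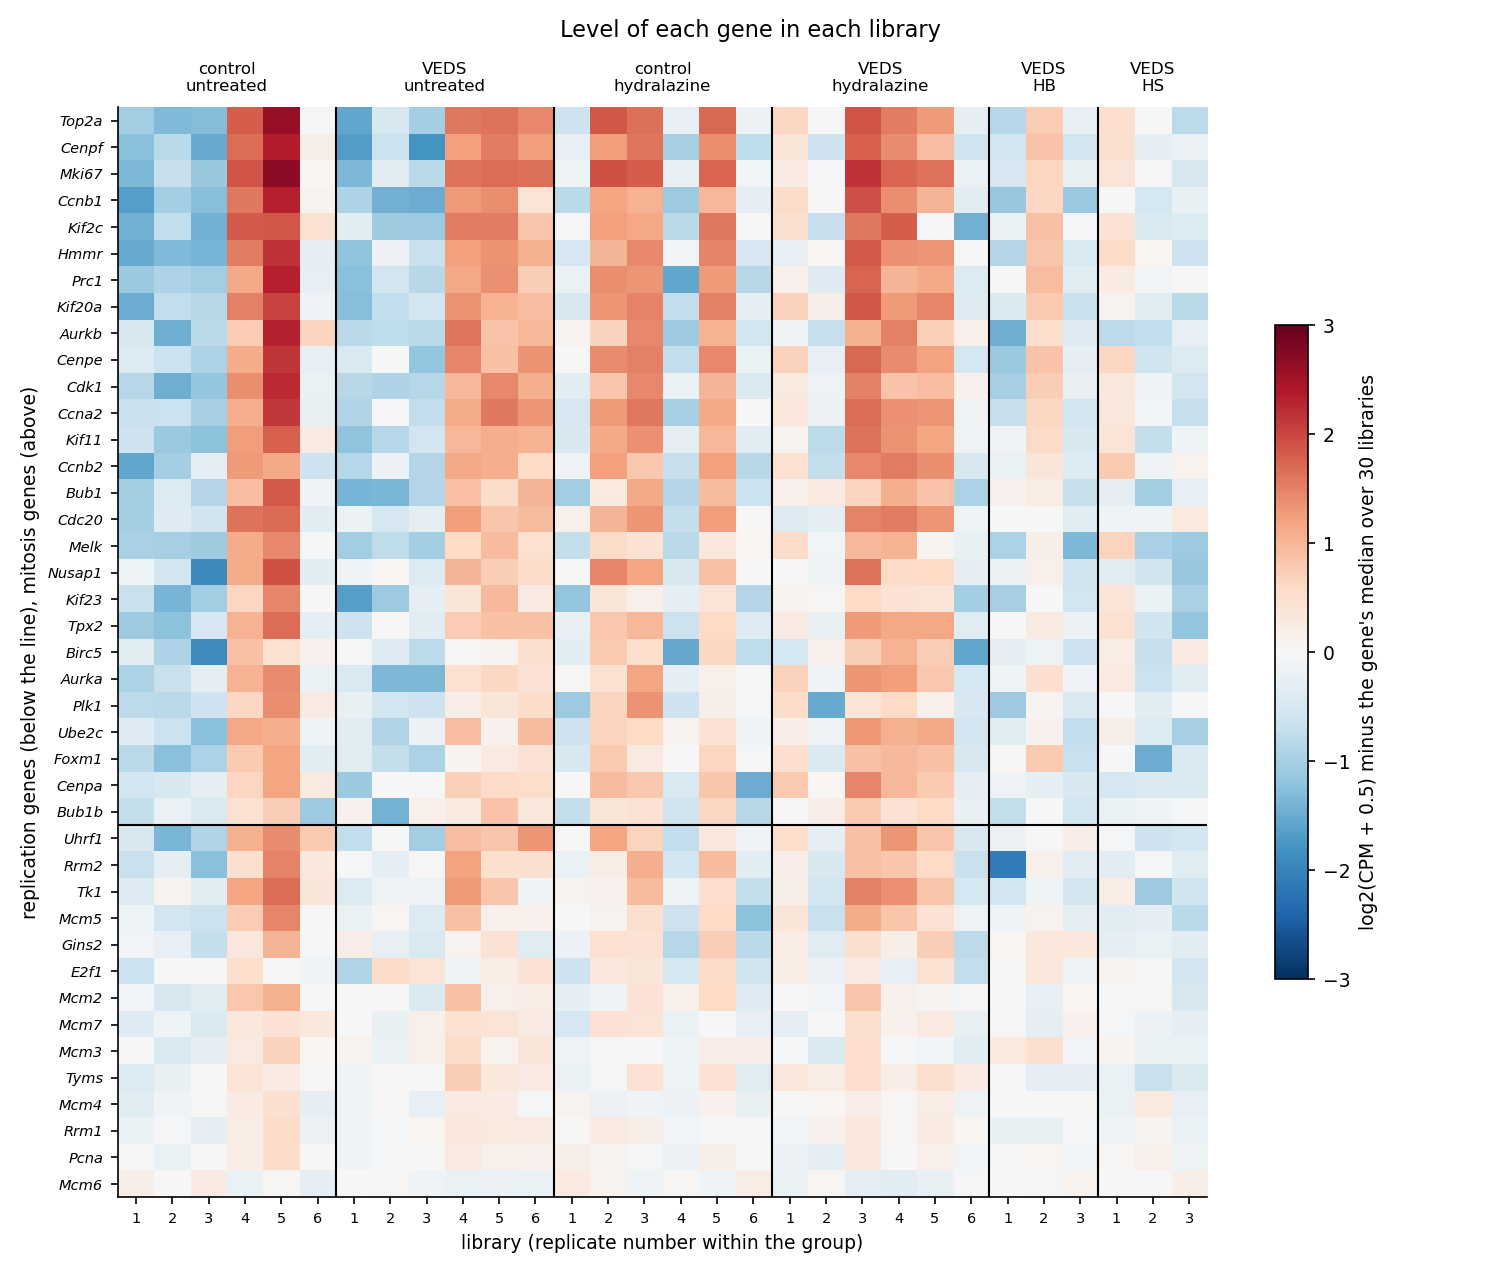
Rows are the 41 genes, mitosis above replication, columns are the 30 libraries by group and replicate, and colour gives log2(CPM + 0.5) minus the gene's median over the 30 libraries. The same columns are high for most mitosis genes, and the contrast fades through the replication genes to *Mcm6*, whose range is 1.55-fold.

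Where a gene's widest gap between neighbouring libraries fell was recorded on the log2(CPM + 0.5) scale, without choosing libraries. In untreated VEDS aortas 25 of 41 members (21 mitosis and 4 replication genes) had it between the third and the fourth library, against 15.5% of all 13534 genes with a mean of at least 1 CPM. Hydralazine control aortas had 21 such members (19 mitosis and 2 replication genes), against 16.3% of all genes. Hydralazine VEDS aortas were less uniform, with 11 members, all of them mitosis genes, against 18.5% of all genes, and 12 members with the widest gap 1 library lower (16.6% of all genes). In untreated control aortas 4 members had it between the third and the fourth library (14.8% of all genes) and 24, of them 21 mitosis genes, between the fourth and the fifth (14.3% of all genes). The median gap between the third and the fourth library was 0.62, 1.11, 0.93 and 0.57 log2 units over the mitosis genes of untreated control, untreated VEDS, hydralazine control and hydralazine VEDS aortas. Over all genes it was 0.075, 0.071, 0.07 and 0.069.

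The libraries that were high were shared between genes. In all 4 groups of 6, 21 of 27 mitosis genes had as their 3 highest libraries those of the mitosis sum, which is partly built in because each gene is part of the sum. Replication genes are not part of it, and 5 of 14 (*Mcm5*, *Mcm7*, *Rrm2*, *Tk1* and *Uhrf1*) did so as well, against 2.53% of all genes (342 of 13534). The same libraries were the 3 lowest in all 4 groups for 421 of these 13534 genes and for 0 of 41 members. *Mcm4* and *Mcm6* matched in none of the groups.

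Spread within groups was large for the mitosis genes and ordinary for several replication genes. The within-group SD of log2(CPM + 0.5), pooled over the 6 groups, had a median of 0.94 over mitosis genes and 0.37 over replication genes, against 0.215 over all genes. Of all genes, 3.9% had an SD at or above the mitosis median and 21.3% at or above the replication median. *Cenpf*, *Top2a* and *Mki67* were at 1.26, 1.26 and 1.23, and *Mcm6*, *Pcna* and *Rrm1* at 0.15, 0.19 and 0.20. Within a group of 6, age and differences between mice cannot be told apart.

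**Figure D4:**
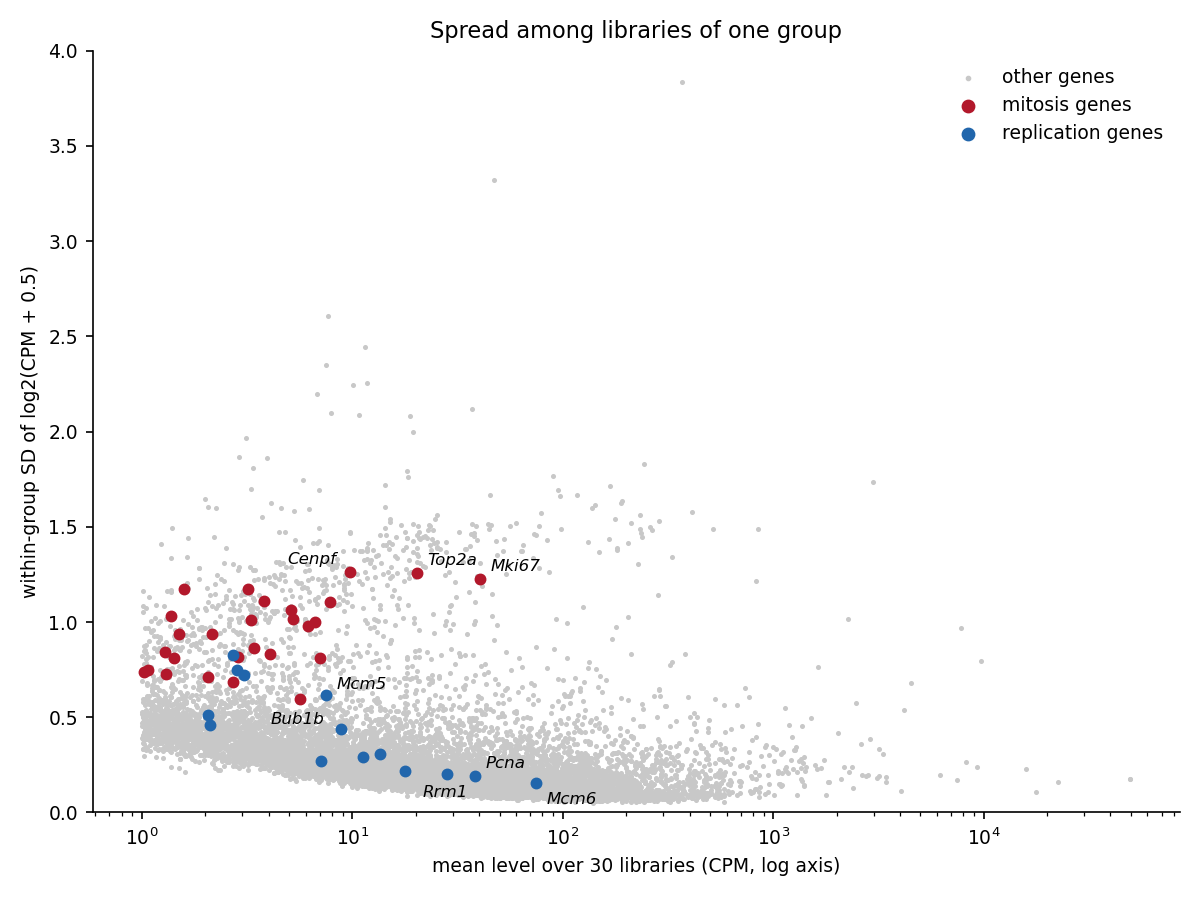
Each point is a gene with a mean of at least 1 CPM, placed by its mean CPM (log axis) and its pooled within-group SD of log2(CPM + 0.5). Mitosis genes lie between 0.60 and 1.26 and replication genes between 0.15 and 0.82.

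Each HB and HS library was placed among the 6 hydralazine VEDS libraries gene by gene. Below their median were 27, 20 and 27 of 27 mitosis genes in HB replicates 1, 2 and 3, against 49.8%, 49.8% and 49.0% of all genes. In HS replicates 1, 2 and 3 they were 24, 27 and 27 of 27, against 52.5%, 49.1% and 50.9% of all genes. HB replicates 1 and 3 and HS replicates 2 and 3 had 26, 26, 26 and 25 mitosis genes at or below the third lowest hydralazine VEDS library. HB replicate 2 and HS replicate 1 had 17 and 13 between the third and the fourth. No HB or HS library had more than 1 mitosis gene at or above the fourth hydralazine VEDS library. Placed instead among the 6 untreated VEDS libraries, HB replicates 1, 2 and 3 had 25, 10 and 27 of 27 mitosis genes below the median (50.6%, 50.6% and 50.0% of all genes) and HS replicates 1, 2 and 3 had 15, 27 and 25 (50.6%, 47.9% and 51.0% of all genes). There HB replicate 2 had 6 and HS replicate 1 had 5 mitosis genes at or above the fourth lowest library, so the position of these 2 libraries depends on the group they are set against. HB replicate 2 also held the heart muscle transcript *Myh6* at 403 CPM, as did control hydralazine replicate 5 (427 CPM), and its part in these positions was not tested.

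The effect of the mutation was tested with and without hydralazine. Each gene was tested with edgeR's quasi-likelihood test, with Benjamini-Hochberg adjustment over all genes tested, and called where the adjusted p did not exceed 0.05. In untreated aortas 0 of 32 members tested were called by edgeR (0.0% of all 12976 genes). Before adjustment, p was under 0.05 for 0 members in edgeR (against 3.04% of all genes) and 0 in DESeq2. DESeq2 made 0 calls (0.0% of all 12976 genes with an adjusted p). The log2 fold change in VEDS over control was -0.18 ± 0.77 (SE, 95% confidence interval -1.85 to 1.49) for *Mki67*, -0.22 ± 0.80 (SE, 95% confidence interval -1.95 to 1.52) for *Top2a*, 0.14 ± 0.48 (SE, 95% confidence interval -0.90 to 1.18) for *Rrm2* and -0.12 ± 0.088 (SE, 95% confidence interval -0.31 to 0.07) for *Mcm6*. The interval of *Mki67* spans more than 1 log2 unit on both sides of 0, so the genotypes were not shown to be alike. With 1 surrogate variable in the fit the estimates of *Mki67* and *Top2a* turned to 0.58 and 0.47.

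Under hydralazine 0 of 38 members were called by edgeR (0.0% of all 12966 genes). DESeq2 called 0 (0.00772% of all 12957 genes with an adjusted p). Before adjustment, p was under 0.05 for 1 member in edgeR (2.63%, against 4.64% of all genes) and 1 in DESeq2. *Mki67* differed by 0.064 ± 0.52 (SE, 95% confidence interval -1.06 to 1.19), *Top2a* by -0.016 ± 0.50 (SE, 95% confidence interval -1.10 to 1.07) and *Rrm2* by 0.0083 ± 0.41 (SE, 95% confidence interval -0.88 to 0.90). The small p was that of *Mcm6*, at -0.24 ± 0.088 (SE, 95% confidence interval -0.43 to -0.047, edgeR, adjusted p = 0.923). Its libraries overlap between the genotypes.

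Over both treatments 0 of 41 members were called by edgeR (0.0% of all 13407 genes). DESeq2 called 0 (0.00746% of all 13397 genes with an adjusted p). Before adjustment, p was under 0.05 for 2 members in edgeR (4.88%, against 3.7% of all genes) and 1 in DESeq2. The edgeR genes were *Mcm6*, at -0.18 ± 0.065 (SE, 95% confidence interval -0.32 to -0.047, edgeR, adjusted p = 1.0), and *Tyms*, at 0.26 ± 0.12 (SE, 95% confidence interval 0.0055 to 0.51, edgeR, adjusted p = 1.0). *Mki67*, *Top2a* and *Rrm2* were at -0.052, -0.11 and 0.074.

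Hydralazine was compared with no treatment in each genotype. In VEDS aortas 0 of 36 members were called by edgeR (0.0% of all 13006 genes), and in control aortas 0 of 33 (0.0% of all 12951 genes). In both, 0 members had an unadjusted p under 0.05 in edgeR or DESeq2. Of all genes, 4.53% had one in edgeR in VEDS and 9.5% in control aortas. DESeq2 called 0 of 36 members in VEDS aortas (0.0154% of all 13006 genes with an adjusted p). In control aortas its own filter left only 7 of 33 members with an adjusted p, of which it called 0 (0.127% of all 8679 genes with an adjusted p). *Mki67* differed by 0.35 ± 0.59 (SE, 95% confidence interval -0.94 to 1.63) in VEDS and by 0.10 ± 0.71 (SE, 95% confidence interval -1.43 to 1.62) in control aortas. *Top2a* differed by 0.28 and 0.083, *Rrm2* by -0.046 and 0.078 and *Mcm6* by -0.043 and 0.066. The median over the mitosis genes tested was 0.36 in VEDS and 0.087 in control aortas. The interaction of genotype and hydralazine was called for 0 of 41 members by edgeR (0.0% of all 13407 genes). Unadjusted p was under 0.05 for 0 members in edgeR (against 3.28% of all genes) and 0 in DESeq2. DESeq2 called 0 (0.0% of all 13398 genes with an adjusted p). The interaction stood at 0.23 ± 0.98 (SE, 95% confidence interval -1.79 to 2.26) for *Mki67*.

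HB and HS were compared with untreated VEDS aortas, from which they differ in 2 drugs and in age. HB gave 0 calls among 37 members in edgeR, where 0.409% of all genes were called, and 0 in DESeq2 (4.27% of all 13201 genes with an adjusted p). Unadjusted p was under 0.05 for 1 member in edgeR (2.7%, against 16.4% of all genes) and 1 in DESeq2. The edgeR gene was *Rrm1*, at -0.31 ± 0.12 (SE, 95% confidence interval -0.58 to -0.028, edgeR, adjusted p = 0.265). HS gave 0 calls among 38 members in edgeR, where 0.309% of all genes were called, and 0 in DESeq2 (2.22% of all 13269 genes with an adjusted p). Unadjusted p was under 0.05 for 4 members in edgeR (10.5%, against 11.1% of all genes) and 3 in DESeq2. Those of edgeR were *Nusap1*, *Mcm5*, *Mcm7* and *Tyms*. *Mki67* stood at -0.85 ± 0.72 (SE, 95% confidence interval -2.45 to 0.75) in HB and -0.94 ± 0.71 (SE, 95% confidence interval -2.52 to 0.64) in HS. The median over members was -0.52 for HB and -0.58 for HS, against -0.015 and -0.011 over all genes tested. The number of all genes called by edgeR rests on single libraries. For HB it was 54, with 529 without untreated VEDS replicate 1 and 2 to 24 without each of the other libraries. For HS it was 41, with 104 without that library and 0 to 13 without each of the others.

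Against hydralazine alone, HB aortas had estimates below 0 for most members, none of them called. edgeR called 0 of 40 members (0.0151% of all genes), and DESeq2 0 (4.34% of all 13264 genes with an adjusted p). Unadjusted p was under 0.05 for 6 members in edgeR (15.0%, against 15.5% of all genes) and 10 in DESeq2. *Tyms* had the smallest, at a log2 fold change of -0.57 ± 0.15 (SE, 95% confidence interval -0.89 to -0.25, edgeR, adjusted p = 0.121). *Mki67* was at -1.18 ± 0.57 (SE, 95% confidence interval -2.45 to 0.081, edgeR, adjusted p = 0.354), *Top2a* at -1.05 ± 0.53 (SE, 95% confidence interval -2.21 to 0.12, edgeR, adjusted p = 0.373), *Rrm2* at -1.01 ± 0.61 (SE, 95% confidence interval -2.36 to 0.34, edgeR, adjusted p = 0.467) and *Mcm6* at 0.18 ± 0.091 (SE, 95% confidence interval -0.021 to 0.38, edgeR, adjusted p = 0.374). The 26 mitosis genes tested all had estimates below 0, with a median of -0.96, and the replication genes a median of -0.19. Over all genes, 6765 of 13266 had estimates below 0, with a median of -0.0041. Mitosis genes vary together across libraries, so their shared sign is not 26 separate results. With 1 surrogate variable in the fit *Mki67* was at 0.27 and *Top2a* at 0.10, so their direction depends on it. The 2 genes called by edgeR became 56 without hydralazine VEDS replicate 4, 36 without replicate 6 and 1 to 2 without each other library.

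HS aortas were compared with hydralazine alone in the same way, again with estimates mostly below 0 and no call. edgeR called 0 of 39 members (0.0% of all 13304 genes), and DESeq2 0 of 37 with an adjusted p (0.414% of all 13040 genes with an adjusted p). Unadjusted p was under 0.05 for 12 members in edgeR (30.8%, against 13.6% of all genes) and 17 in DESeq2. *Tyms* was at -0.81 ± 0.16 (SE, 95% confidence interval -1.16 to -0.46, edgeR, adjusted p = 0.332), *Mki67* at -1.26 ± 0.56 (SE, 95% confidence interval -2.51 to -0.013, edgeR, adjusted p = 0.366), *Top2a* at -1.08 ± 0.51 (SE, 95% confidence interval -2.20 to 0.046, edgeR, adjusted p = 0.382) and *Rrm2* at -0.70 ± 0.44 (SE, 95% confidence interval -1.67 to 0.28, edgeR, adjusted p = 0.494). *Mcm6* had the opposite sign, at 0.23 ± 0.094 (SE, 95% confidence interval 0.019 to 0.43, edgeR, adjusted p = 0.347). The 25 mitosis genes tested all had estimates below 0, with a median of -1.06. Over all genes, 6577 of 13304 had estimates below 0, with a median of 0.003. Here too the mitosis genes vary together and are not 25 separate results. With 1 surrogate variable *Mki67*, *Top2a* and *Rrm2* were at 0.22, 0.14 and 0.15. Both antagonist comparisons use the same 6 hydralazine VEDS libraries and set day 60 aortas against aortas of 2 ages, so antagonist and age cannot be told apart.

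HS and HB, both of day 60 and each at 1 dose, were compared with each other. edgeR called 0 of 30 members (0.0% of all 12800 genes). Unadjusted p was under 0.05 for 0 members in edgeR (against 6.68% of all genes) and 0 in DESeq2. DESeq2's filter left 5 of the 30 members with an adjusted p, of which it called 0 (0.447% of all 7835 genes with an adjusted p). The log2 fold change in HS over HB was -0.079 ± 0.33 (SE, 95% confidence interval -0.84 to 0.68) for *Mki67*, -0.034 ± 0.46 (SE, 95% confidence interval -1.10 to 1.03) for *Top2a*, 0.30 ± 0.63 (SE, 95% confidence interval -1.15 to 1.76) for *Rrm2* and 0.043 ± 0.093 (SE, 95% confidence interval -0.17 to 0.26) for *Mcm6*. Without HB replicate 2, the library with heart muscle RNA, and HS replicate 3, which had the lowest level of the liver transcript *Alb* among the 6 HB and HS libraries (112 CPM), *Mki67*, *Top2a* and *Mcm6* were at 0.54, 0.84 and -0.051. The 2 treatments were not shown to act alike.

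**Figure D5:**
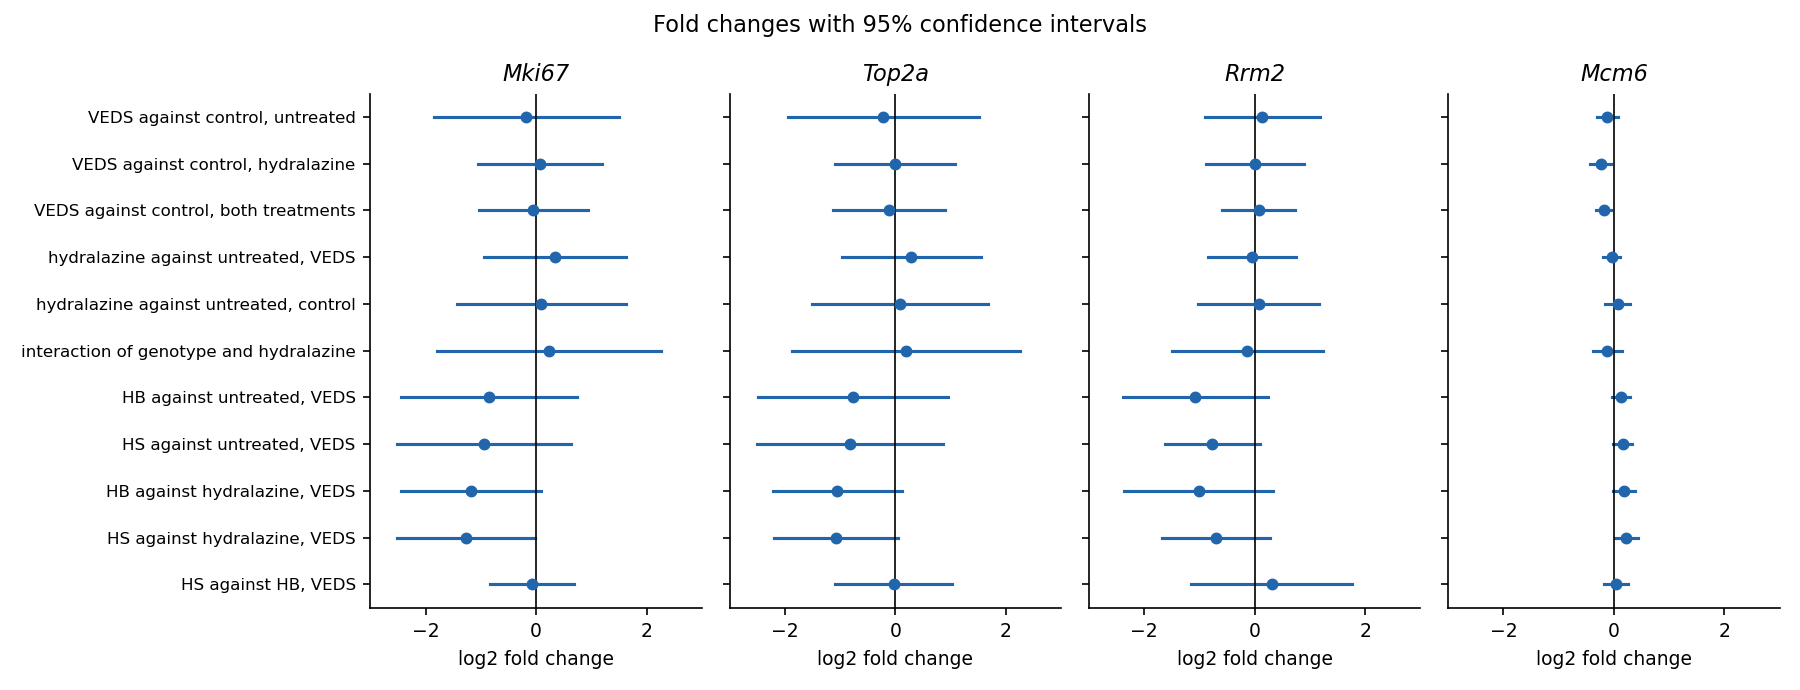
Points give the log2 fold change of *Mki67*, *Top2a*, *Rrm2* and *Mcm6* in 11 comparisons and lines the 95% confidence interval from edgeR. Intervals are wide for *Mki67* (in untreated VEDS over control -1.85 to 1.49) and narrow for *Mcm6* (-0.31 to 0.07).

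The replicate spread that edgeR estimates, as a biological coefficient of variation, had a median over members of 0.654 in untreated VEDS against control and 0.272 in HS against HB. Over all genes it was 0.145 and 0.142. These comparisons differ in ages, genotypes, drugs, number of libraries and members tested (32 and 30). The cause of the difference in spread was not tested.

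Other cell cycle genes were read from 9 lists, none of whose genes was called by edgeR in any of the 11 comparisons. Of all genes, edgeR called at most 0.409% in a comparison, so the absence of calls is not particular to these lists. DESeq2 calls are not given for them. Kinetochore genes varied widely, with a median within-group SD of 0.67 over 10 genes. *Ndc80*, *Nuf2*, *Spc24* and *Knl1*, which link microtubules to the kinetochore, had the 3 highest libraries of the mitosis sum in all 4 groups. So did 4 of 14 condensin, cohesin and separase genes (*Ncapd2*, *Ncapg*, *Ncapg2* and *Sgo1*) and 2 of 9 recombination and checkpoint genes (*Brca1* and *Clspn*). Of 15 origin genes *Dbf4* did, of 10 G1 genes *Cdk2*, and of 22 polymerase and fork genes 0. Securin (*Pttg1*), the inhibitor of separase, ran the other way in 3 of the 4 groups, where these were its 3 lowest libraries (14.9 to 31.5 CPM over all libraries). Of all 13534 genes, 342 had these as their 3 highest and 421 as their 3 lowest libraries in all 4 groups. The share of all genes that did either in 3 groups was not counted.

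Replication-dependent histone genes, transcribed in S phase, matched the mitosis sum in all 4 groups for 20 of 49. *H2bc15* ran from 1.4 to 12 CPM and *H3c2* from 0.0 to 10.6 CPM. *H2bc21* had these libraries as its 3 lowest in all 4 groups, at 10.4 to 18.7 CPM, and is 1 of 421 such genes among all 13534. Histone genes are near-identical copies, so how reads were shared among them is uncertain.

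Regulators of entry into the cycle differed among themselves. The E2F, Rb and DREAM list had a median within-group SD of 0.216, and 0 of its 14 genes matched the mitosis sum in all 4 groups. The pocket proteins *Rb1* and *Rbl2*, which hold E2F targets off, had SDs of 0.13 and 0.17, and the D cyclin *Ccnd2* 0.15. The G1 list had a median of 0.247. Wider SDs were those of the activator *E2f2* (0.59), the E cyclin *Ccne2* (0.58), *Myc* (0.45) and the pocket protein *Rbl1* (0.36). Each of these matched the mitosis sum in 3 of the 4 groups, and the share of all genes that did so was not counted.

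The CDK inhibitors, which hold cells out of the cycle, matched the mitosis sum in all 4 groups for 0 of 6 genes. Group means were 16.1 to 20.5 CPM for *Cdkn1a* (p21), 40.2 to 48.6 CPM for *Cdkn1b* (p27), 9.8 to 11.7 CPM for *Cdkn1c* (p57), 0.948 to 2.34 CPM for *Cdkn2b*, 7.71 to 12 CPM for *Cdkn2c* and 4.85 to 6.48 CPM for *Cdkn2d*. *Cdkn2a* did not exceed 0.492 CPM in any library. The smallest unadjusted p values were in HB against untreated VEDS aortas, for *Cdkn2b* at 2.34 ± 0.726 against 0.948 ± 0.38 CPM (SD, n = 3 and 6, edgeR, adjusted p = 0.131). *Cdkn2c* followed at 7.71 ± 1.41 against 11.7 ± 2.41 CPM (edgeR, adjusted p = 0.183).

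The 10 genes outside the list most like the members were found by Pearson's r between group-centred log2(CPM + 0.5) and the members' mean, over 30 libraries. They were *H2bc15* (0.972), *Nuf2* (0.971), *Ssr2* (0.967), *Aspm* (0.967), *D17H6S56E-5* (0.961), *Srpx* (0.955), *Ckap2l* (0.954), *Kntc1* (0.954), *H2bc12* (0.952) and *H2bc23* (0.95). *Nuf2* and *Kntc1* act at the kinetochore and *Aspm* and *Ckap2l* at the spindle, while *Ssr2*, of the endoplasmic reticulum translocon, ran from 57 to 111 CPM. Since libraries fall into high and low ones, r describes that division and has no test. Among the members, r with the mean of the others was 0.984 for *Mki67*, 0.551 for *E2f1* (6 to 23 counts a library) and -0.668 for *Mcm6*, the only one below 0.

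Smooth muscle transcripts were abundant in all libraries, and T cell transcripts were near the counting limit. The smooth muscle myosin *Myh11* was at 5212 CPM or more. The summed level of 9 T cell and thymocyte genes was 0.326 to 3.42 CPM in untreated control, 0.461 to 2.61 in untreated VEDS, 0.446 to 2.13 in hydralazine control, 0.467 to 9.4 in hydralazine VEDS, 1.16 to 1.53 in HB and 0.601 to 1.13 CPM in HS aortas. *Rag2* and *Ptcra* had no count in 29 of 30 libraries each, and *Rag1* reached 6.15 CPM in hydralazine VEDS replicate 3. The 3 libraries with the highest mitosis sum were among the 3 highest for these T cell genes in 3, 3, 2 and 3 cases in untreated control, untreated VEDS, hydralazine control and hydralazine VEDS aortas. Their part in the division was not tested.

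Of the markers of resident and neighbouring tissue, those of fibroblasts, brown adipocytes and hepatocytes mostly shared the high libraries. Smooth muscle markers mostly did not, and the other markers shared them in part. In the same order of groups, the libraries shared with the 3 highest were 1, 0, 0 and 0 for 6 smooth muscle markers, 3, 3, 2 and 3 for 6 fibroblast markers, 3, 2, 3 and 3 for 4 brown adipocyte markers and 3, 2, 2 and 3 for 4 hepatocyte markers. Smooth muscle sums were 15503 to 27989 CPM in untreated control, 16988 to 29543 in untreated VEDS, 19631 to 27218 in hydralazine control, 16607 to 27196 in hydralazine VEDS, 25073 to 27771 in HB and 21334 to 22852 CPM in HS aortas. Fibroblast sums were 2160.0 to 3106 CPM in untreated control, 2258 to 3275 in untreated VEDS, 2158 to 2935 in hydralazine control, 2572 to 3110.0 in hydralazine VEDS, 2414 to 2722 in HB and 2712 to 2949 CPM in HS aortas. Brown adipocyte sums had medians of 340.0, 603, 506, 395, 134 and 86.9 CPM in the same groups. Hepatocyte sums were 778 to 8737 CPM in untreated control, 68.9 to 13206 in untreated VEDS, 495 to 9854 in hydralazine control, 1555 to 10732 in hydralazine VEDS, 538 to 718 in HB and 147 to 1466 CPM in HS aortas. The high libraries were thus mostly not the highest for smooth muscle and mostly the highest for fibroblast markers. Shared libraries were 2, 2, 2 and 3 for erythroid markers, 3, 2, 1 and 2 for macrophage markers and 2, 2, 2 and 3 for mesothelial markers. White adipocyte markers shared 2, 2, 2 and 2, neutrophil markers 2, 1, 2 and 2 and endothelial markers 0, 2, 1 and 1. B cell markers shared 2, 2, 1 and 1, cardiomyocyte markers 1, 2, 1 and 2, skeletal muscle markers 2, 2, 1 and 1 and Schwann cell markers 0, 2, 2 and 2. Sets of 3 among 6 libraries overlap in part by chance, and these counts were not tested. Some matches were close, as for brown adipocyte markers in untreated control aortas (343 CPM in replicate 4, 336 CPM in replicate 2). The part of these cells in the division was not tested.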

How the data were processed

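RNA-seq libraries (stranded total RNA, NovaSeq) were made by the authors from perfused aortas. Per the labels the adventitia was stripped with forceps, while the study's methods name removal of the perivascular fat; fibroblast markers are present in all libraries. Per the submitters' processing notes, CASAVA 1.8.4 converted base calls and RSEM quantified genes on mm39. The deposited expected counts (97.6% whole within 1e-06) were rounded for testing, and the deposited TPM values served only to compare levels between genes. Library totals were 5517509 to 8293287 counts, so that 1 CPM is 5.52 to 8.29 counts and genes at a few CPM carry large counting error. Tests used edgeR 4.0.16 under R 4.3.3, each on the libraries compared, after the tool's default expression filter, with TMM scaling. DESeq2 1.42.0 and a surrogate variable from sva 3.50.0 were alternatives. The code was tested on simulated counts. The labels name no litters or cultures, so p-values measure the spread between these samples.

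The members and lists were chosen with earlier results of these data known. By rule, library values are given for 15 members, fold changes for *Mki67*, *Top2a*, *Rrm2* and *Mcm6*, all CDK inhibitors, and the 10 genes most alike; members with a small unadjusted p, *Col3a1* and the pathway genes named were picked after their values were seen. Promoter coordinates are those of GRCm38.p6, another build than the counts, and none was converted.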

Additional observations from a re-analysis of the deposited data

Results flagged for a closer look

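In 68 sets of 6 values, those of the 15 genes given library by library and of both sums in 4 groups, a library far from the rest was sought, which chance finds in about 1 in 20. The other 26 members were not screened. *Mcm2* was 14.5 CPM in VEDS hydralazine replicate 3, with the next library at 8.94 CPM. *Mcm5* was 12.7 CPM in VEDS untreated replicate 4, with the next at 7.42 CPM. Both genes encode subunits of the Mcm helicase.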

How the results depend on the processing

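No member was called in any of 213 alternative fits of the 11 comparisons (RLE scaling, DESeq2, other filters, 1 fit of all libraries, a surrogate variable, libraries left out), and of 852 fold changes of 4 genes 110 took the other sign, all of them uncalled. Leaving out 1 library kept the members called at 0 to 0, while the number of all genes called moved up to 529. No paired analysis was possible because the labels number no replicates that groups share. The widest-gap counts cannot be recomputed with 5 libraries. Untreated control members with the widest gap between the third and the fourth library fell from 4 to 2 with CPM on plain library totals. The causes were not tested.

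With 1 surrogate variable the fold changes (log2) that took the other sign were in VEDS against control without treatment *Mki67* 0.577 and *Top2a* 0.47, in VEDS against control under hydralazine *Mki67* -0.754 and *Rrm2* -0.505, in hydralazine against untreated in VEDS aortas *Mki67* -0.114 and *Top2a* -0.0681. Further such values were in the interaction of genotype and hydralazine *Mki67* -1.54, *Top2a* -1.32 and *Mcm6* 0.000832, in HB against hydralazine in VEDS aortas *Mki67* 0.27 and *Top2a* 0.0966, in HS against hydralazine in VEDS aortas *Mki67* 0.218, *Top2a* 0.139 and *Rrm2* 0.153. Without control hydralazine replicate 5, HB replicate 2 and HS replicate 3, chosen after seeing the data, they were in VEDS against control under hydralazine *Top2a* 0.162, in VEDS against control over both treatments *Mki67* 0.0139, in hydralazine against untreated in control aortas *Mki67* -0.0536, *Top2a* -0.0953 and *Rrm2* -0.0985. Further such values were in the interaction of genotype and hydralazine *Rrm2* 0.0461, in HS against HB in VEDS aortas *Mki67* 0.541, *Top2a* 0.841 and *Mcm6* -0.0507. Leaving out 1 library at a time, these fold changes took both signs in VEDS against control without treatment *Mki67* -0.409 to 0.592, *Top2a* -0.469 to 0.571 and *Rrm2* -0.143 to 0.647, in VEDS against control under hydralazine *Mki67* -0.226 to 0.28, *Top2a* -0.264 to 0.226 and *Rrm2* -0.142 to 0.275, in VEDS against control over both treatments *Mki67* -0.198 to 0.308, *Top2a* -0.235 to 0.254 and *Rrm2* -0.0604 to 0.299. Further such values were in hydralazine against untreated in VEDS aortas *Rrm2* -0.209 to 0.218, in hydralazine against untreated in control aortas *Mki67* -0.134 to 0.854, *Top2a* -0.174 to 0.854 and *Rrm2* -0.195 to 0.575, in the interaction of genotype and hydralazine *Mki67* -0.532 to 0.462, *Top2a* -0.591 to 0.443 and *Rrm2* -0.636 to 0.149. Further such values were in HS against HB in VEDS aortas *Mki67* -0.34 to 0.341, *Top2a* -0.402 to 0.546, *Rrm2* -0.198 to 0.887 and *Mcm6* -0.00867 to 0.0914. Depth is most limiting for *Birc5*, *Plk1*, *Aurka*, *Ube2c*, *Melk*, *E2f1* and *Gins2*, each with at most 26 counts a library.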
